A study of Homo sapiens with 402 samples.

Results

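MCF10A cells exposed to 25 µM cadmium for 48 h were represented by 2 libraries that carry the barcode of their own plate, 3153-AT, and they were set against the 15 water controls with the same plate name and barcode. These 17 libraries are part of 402 analysed for the series and of 93 on the plate. MCF10A is an established, non-tumorigenic line from human breast epithelium (genotype WT in the labels), used here at passage 105. Every well received 500 cells, was dosed 24 h after plating, and was lysed for plate-based RNA sequencing (plexWell) in which the cDNA of each well takes its own barcode. The dosed group is labelled Cadmium 25 with water as its solvent, and the cadmium salt is not given in the sources used here. The controls are labelled Control 0 with water. Further groups from the same plate were Cadmium 2.5, 0.25 and 0.025 and Arsenic 25, each with 4 libraries, the same solvent, the same cells and the same exposure time. The labels state 4 biological replicates per dose, but only replicates 1 and 2 of Cadmium 25 met the rule. A further library labelled Cadmium 25 carries the barcode of plate 3284-AT and was left out of the main tests. All of the wells came from 1 line at 1 passage, so the p-values rest on the spread between wells of that culture. For edgeR that spread was estimated over all 93 libraries of the plate, and the 2 cadmium libraries supply little of it. These 2 libraries differed more from each other than controls did, so edgeR p-values may be too small.

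Cadmium is a toxic metal that binds thiol groups and displaces zinc in proteins. Zinc freed in this way activates the transcription factor MTF1, which binds metal response elements and switches on metallothioneins, small cysteine-rich proteins that bind zinc, copper and cadmium. Misfolded proteins free the factor HSF1, which binds heat shock elements of chaperone genes. Modified KEAP1 releases NRF2 to antioxidant genes. Unfolded proteins in the endoplasmic reticulum (ER) activate ATF6, XBP1 and ATF4 and through them ER chaperones and stress genes.

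The promoters of 5 genes on which the results turn are printed to show these elements. Each line gives the 250 bases before the annotated start, 5′ to 3′ on the gene's own strand, from RefSeq (GRCh38.p14). Gene positions given below are from GENCODE v29, whose starts lie further upstream for HSPA1A, MT1X and MT2A. Capitals mark the heat shock element in HSPA6 (chr1:161524290-161524539, plus strand) and HSPA1A (chr6:31815293-31815542, plus strand). They mark the metal response element in MT1X (chr16:56682220-56682469, plus strand) and MT2A (chr16:56608334-56608583, plus strand), and the ER stress element in HSPA5 (chr9:125241344-125241593, minus strand).
HSPA6: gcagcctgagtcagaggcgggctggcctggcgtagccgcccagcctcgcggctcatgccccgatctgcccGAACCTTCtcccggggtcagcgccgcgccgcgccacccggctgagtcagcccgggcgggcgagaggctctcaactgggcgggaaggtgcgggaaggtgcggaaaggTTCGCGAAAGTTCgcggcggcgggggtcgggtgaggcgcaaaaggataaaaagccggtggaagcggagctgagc
HSPA1A: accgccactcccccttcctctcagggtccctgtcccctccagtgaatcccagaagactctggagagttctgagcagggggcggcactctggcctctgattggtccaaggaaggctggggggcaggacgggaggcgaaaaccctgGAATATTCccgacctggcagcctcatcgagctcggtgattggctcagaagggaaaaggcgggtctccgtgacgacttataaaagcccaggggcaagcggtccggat
MT1X: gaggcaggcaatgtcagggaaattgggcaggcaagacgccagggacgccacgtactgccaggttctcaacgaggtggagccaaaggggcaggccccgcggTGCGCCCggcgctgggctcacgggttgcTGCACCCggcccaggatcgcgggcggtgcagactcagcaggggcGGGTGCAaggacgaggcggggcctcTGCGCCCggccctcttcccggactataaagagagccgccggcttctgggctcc
MT2A: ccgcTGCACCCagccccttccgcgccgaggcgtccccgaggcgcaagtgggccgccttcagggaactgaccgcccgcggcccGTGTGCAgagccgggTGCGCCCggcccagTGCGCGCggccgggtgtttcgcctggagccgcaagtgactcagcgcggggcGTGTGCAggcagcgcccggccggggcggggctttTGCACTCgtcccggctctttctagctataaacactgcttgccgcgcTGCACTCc
HSPA5: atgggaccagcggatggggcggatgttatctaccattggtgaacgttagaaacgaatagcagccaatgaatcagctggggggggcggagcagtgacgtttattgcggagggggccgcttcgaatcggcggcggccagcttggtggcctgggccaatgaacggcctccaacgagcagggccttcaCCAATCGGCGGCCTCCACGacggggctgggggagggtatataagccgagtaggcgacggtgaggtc

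Both strands were searched, and a match is a description of letters, not of a binding site. The heat shock element was spelled GAANNTTC or TTCNNGAA and occurred in 11.6% of 35116 promoters of this length. HSPA6 held 3 matches, of which the 2 nearest the start overlap, and HSPA1A held 1. Promoters were found for 12 of the 13 HSP70 and HSP110 genes, and 5 of these 12 held the element. Of 29 promoters found for HSP90s, small heat shock proteins and co-chaperones, 7 held it. The promoters of HSPH1, DNAJB1 and BAG3 held no match. The metal response element was spelled TGCACNC or TGCGCNC, and 6.48% of all promoters held at least 2 matches. MT1X held 4 and MT2A held 7, and all 5 metallothionein promoters found had at least 2. The ER stress element (CCAAT and CCACG with 9 bases between them) occurred in 0.074% of all promoters and in 6 of 21 promoters of ER chaperone genes. The antioxidant response element, spelled TGACNNNGC, occurred in 10.9% of all promoters and in 3 of 18 of NADPH supply and NRF2 target genes. A further element, named CHOP-ATF4 and spelled TGATGNAAT or TGATGNAAC, occurred in 1.55% of all promoters and in 1 of 20 of ATF4 targets.

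The cadmium libraries were small and dominated by a few transcripts. Their totals were 1.43 M and 1.45 M counts, with 10579 and 10241 genes detected (at least 1 count). Control totals ran from 1.93 M to 23.9 M (median 12.6 M) with 12285 to 18571 genes. Controls fall into 2 ranges by their number in the label: controls 1 to 8 held 12.6 M to 23.9 M counts and controls 10 to 16 held 1.93 M to 5.40 M. Control 9 was not analysed here. When every library was thinned to 1434176 counts, 10579 and 10237 genes were detected in the cadmium libraries and 12183 to 15092 (median 14733) in the controls. The groups did not overlap (two-sided exact permutation test, p = 0.00735, the smallest that 136 splits allow). The difference of means was -4580 genes against controls 1 to 8 alone (exact permutation p = 0.0222) and -2502 genes against controls 10 to 16 alone (exact permutation p = 0.0278), each the smallest p possible. Fewer cells in a well and less RNA per cell cannot be told apart in such lysates.

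Mitochondrial transcripts took 39.3% and 46.8% of the counts of the cadmium libraries and 7.87% to 11.4% (median 10.4%) of those of the controls (exact permutation p = 0.00735). MT-RNR2, the large ribosomal RNA of the mitochondrion, alone took 31.6% and 37.5%, against 3.88% to 6.08% in the controls. Without both mitochondrial ribosomal RNAs the share was still 10.6% and 13.99% against 4.05% to 5.97%. The 50 most abundant genes held 52.95% and 59.3% of the counts, against 22.2% to 27.1% (exact permutation p = 0.00735). Protein-coding genes held 65.7% and 59.7%, against 91.0% to 93.5% in the controls.

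**Figure D1:**
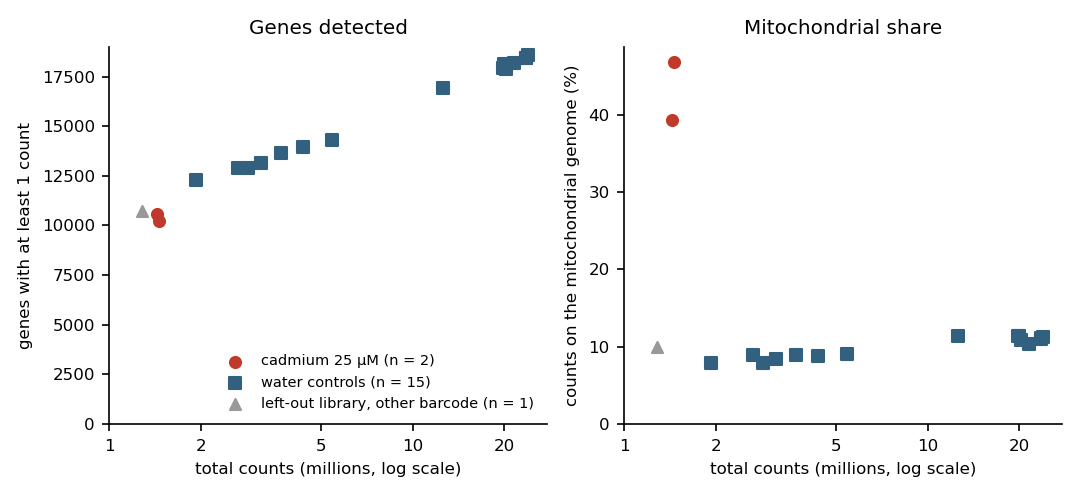
Genes with at least 1 count (left) and the percent of counts on the mitochondrial genome (right) against the total count of each library, in M (as in 1.43 M) on a log axis. The 2 cadmium libraries lie at 1.43 M and 1.45 M counts with 39.3% and 46.8% mitochondrial counts, above all 15 water controls, which reach 11.4%, while the left-out library lies at 9.99%.

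Many transcripts of moderate level in the controls were not seen in the cadmium libraries. Levels below are CPM, the usual depth-scaled count, on library totals scaled by TMM, a factor that aligns the bulk of the genes between libraries. That factor was 0.556 and 0.491 for the cadmium libraries and 0.951 to 1.13 for the controls, so their CPM values lie well above their plain shares of the total. Of 3391 genes with a control mean of 10 to 30 CPM, 23.8% and 27.9% had 0 counts in the thinned cadmium libraries, and 9.73% had 0 in both. At most 0.767% of them were at 0 in any control. Of 3521 genes at 30 to 100 CPM, 3.58% and 5.99% were at 0, against at most 0.0568% in a control. The cadmium libraries also differed more from each other than controls did: over 9364 genes the correlation of log2 CPM was 0.632 between them and 0.847 to 0.987 between pairs of controls, whose depth was greater.

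**Figure D2:**
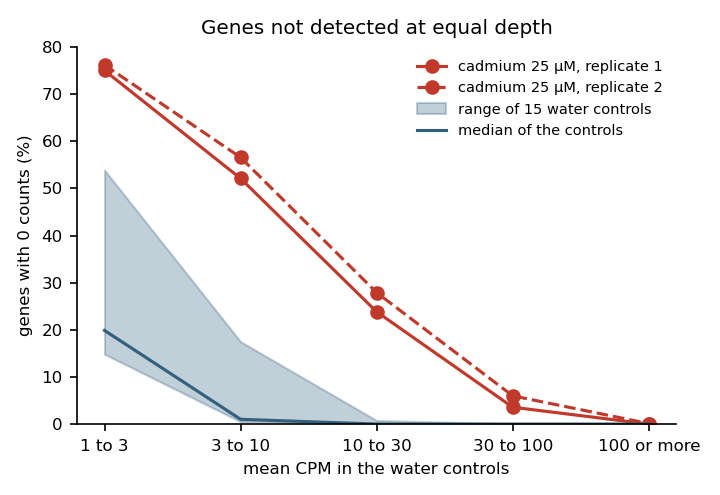
Percent of genes with 0 counts at an equal depth of 1.43 M counts, by the genes' mean CPM in the water controls, for each cadmium library and for the range and median of the 15 controls. In the 10 to 30 CPM class the cadmium libraries lie at 23.8% and 27.9% and no control exceeds 0.767%.

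Between cadmium and water, 2684 of 24295 genes tested were called (adjusted p under 0.05, edgeR quasi-likelihood F-test), which is 11% of them. Higher in cadmium were 1378 genes (5.67%), and 1306 (5.38%) were lower. Calls depended on the mean level in the higher group. Of 3780 genes at 30 to 100 CPM 292 were higher and 630 lower. Of 650 at 300 CPM or more 304 were higher and 99 lower. No gene under 3 CPM was called, so lists of abundant genes exceed the share over all genes more easily. Both cadmium libraries lay outside the range of the controls for 4776 genes (19.7%), above it for 1594 (6.56%) and below it for 3182 (13.1%), and 2233 of the called genes were among these. The median fitted log2 fold change over all genes was -1.42, but 11907 genes had 0 counts in both cadmium libraries, and with genes at 0 in a group set to the bound of 3 counts over that group the median was 0. Where that bound was under 1-fold, or both groups were at 0, the value was set to 0, which weighs on this median. Under another scaling (RLE) the share of calls that were higher was 62.2%, against 51.3%. With DESeq2, which estimates the spread in another way, 6591 genes were called, and with either cadmium library left out 1286 to 1517 were. Depth and the mitochondrial share differ between the groups in every comparison below, and their part in the results was not tested. Within the low replicate numbers alone (dosed replicates 1 and 2 with controls 1 to 8) 2149 genes were called, and with a term for low or high numbers 2234. With the mitochondrial genome left out of the counts 2560 genes were called, and with all libraries thinned to equal depth 6097.

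**Figure D3:**
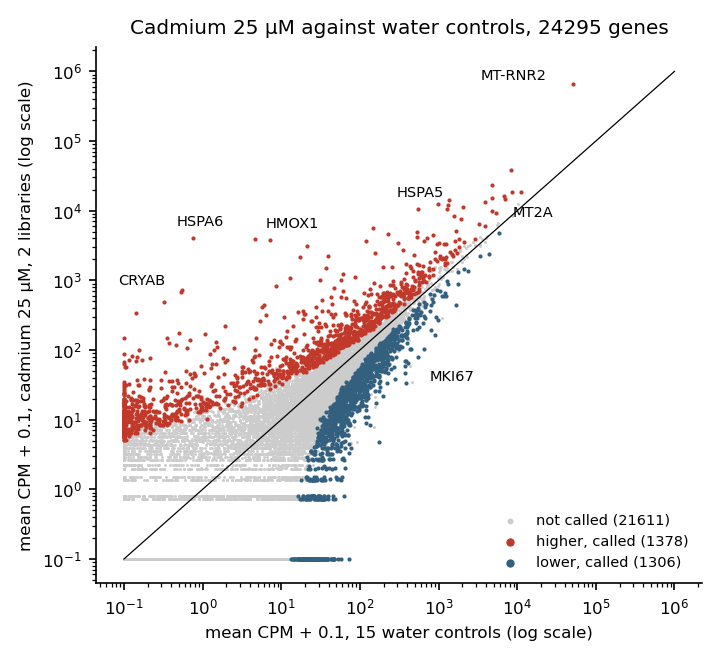
Mean CPM of the 2 cadmium libraries against that of the 15 water controls for 24295 genes, both on log axes after adding 0.1. The 1378 genes called higher lie above the diagonal, with HSPA6, HMOX1 and CRYAB farthest from it among labelled genes, and the 1306 called lower lie below it.

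Metallothioneins rose. Of 12 listed genes 9 could be tested, and 6 of them were higher and none lower, with a median log2 fold change of 2.34. MT1X (chr16:56682424-56684196 in GRCh38) was at 1076 and 941 CPM in cadmium and at 10.7, 74.5 and 103 CPM (lowest, median and highest) in the controls. No control reached either cadmium library, and the log2 fold change was 3.92 ± 0.59 (SE; edgeR adjusted p = 1.31e-07). MT2A (chr16:56608199-56609497), a major human metallothionein, stood at 14904 and 17881 CPM against 3028, 7833 and 10554 CPM. The groups did not overlap, but the difference was small (log2 fold change 1.25 ± 0.30, edgeR adjusted p = 0.00179).

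Control metallothionein levels depended on the range of control numbers. MT1X was at 74.5 to 103 CPM in controls 1 to 8 and at 10.7 to 30.7 CPM in controls 10 to 16, and MT2A at 7833 to 10554 and 3028 to 4883 CPM. Against controls 1 to 8 alone the log2 fold change was 3.34 for MT1X and 0.68 for MT2A, and the latter was no longer called (edgeR adjusted p = 0.126). MT2A also missed the threshold without cadmium replicate 2 (edgeR adjusted p = 0.115). MT1F was at 349 and 239 CPM against at most 23.9 (log2 fold change 4.44 ± 0.58), MT1E at 3881 and 4987 against at most 1343 (2.34 ± 0.37), and the pseudogene MT1L at 519 and 509.7 against at most 56.4 (3.72 ± 0.50).

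MT1B had 26 and 1 counts in cadmium and none in the 15 controls, which makes it at least 1110-fold higher, a call that rests on replicate 1 (edgeR adjusted p = 1 without it) and that DESeq2 did not make (adjusted p = 0.480). MT1G had no count in either cadmium library and at most 1.27 CPM in a control, so no fold is given. MT1M, MT3 and MT4 were not tested. These genes are near-identical copies, and reads may have been split between them in the counting. As a plain share of each library, metallothioneins held 1.15% and 1.21% in cadmium and 0.36% to 1.16% in the controls, so replicate 1 was then inside the control range. Of 20 zinc transporters tested, 1 rose and 1 fell, no more than the 5.67% and 5.38% of all genes. SLC30A1, which exports zinc and is an MTF1 target, was at 75.3 and 86.8 CPM against 24.2, 34.2 and 50.4 CPM (log2 fold change 1.27 ± 0.44, edgeR adjusted p = 0.0441). It lost the call without cadmium replicate 1 (edgeR adjusted p = 0.266), without replicate 2 (0.459) and against either range of controls alone (0.0598 and 0.238).

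Cytosolic chaperones rose, several of them from near 0. In the HSP70 and HSP110 list 6 of 13 genes rose and none fell, with a median log2 fold change of 0.80. HSPA6 (chr1:161524540-161526910), a strictly stress-inducible HSP70 with a close pseudogene that may share its reads, was at 2979.6 and 5009 CPM in cadmium and at 0, 0.509 and 3.67 CPM in the controls. The log2 fold change was 12.85 ± 0.29 (edgeR adjusted p = 8.85e-72), and its promoter is the one above with 3 matches to the heat shock element. HSPA1A (chr6:31815464-31817946), the main inducible HSP70, was at 2910.5 and 3366 CPM against 11.6, 19.2 and 48.8 CPM (7.31 ± 0.22, edgeR adjusted p = 1.63e-48). Every control lay far below both libraries for each of these genes.

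HSPA1B, nearly identical to HSPA1A so that reads may be shared, was at 777 and 864 CPM against at most 15.96 (log2 fold change 6.73 ± 0.27). HSPH1, an HSP110 that exchanges nucleotide on HSP70, was at 2463 and 2501 CPM against at most 262 (4.06 ± 0.18). HSPA8, the constitutive HSP70, was already at 3144 to 4678 CPM in the controls and reached 14284 and 12648 (1.79 ± 0.13). The plain share of counts on the list was 1.38% and 1.27% in cadmium and 0.428% to 0.740% in the controls, so the groups were apart without scaling too.

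Among HSP90s, small heat shock proteins and co-chaperones 23 of 34 genes rose and 1 fell, with a median of 0.97. CRYAB, a small heat shock protein of lens and muscle, was at 667 and 709 CPM against 0, 0.0436 and 2.87 CPM (log2 fold change 11.38 ± 0.38). DNAJB1, an HSP40 partner of HSP70, was at 4879 and 6231 CPM against 110.3, 140.4 and 216 CPM (5.28 ± 0.16, edgeR adjusted p = 1.04e-49). BAG3, which couples HSP70 to autophagy, was at 3541 and 3899.9 CPM against 91.0, 112 and 166 CPM (5.01 ± 0.14). HSPB1 was at 3196 and 3784 CPM against at most 378 (3.51 ± 0.13), and HSPB8, the partner of BAG3, at 131 and 32.2 against at most 14.5 (4.57 ± 0.75). All 5 genes were apart from the controls in both libraries, and without replicate 1 HSPB8 was not called (edgeR adjusted p = 0.318).

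Genes of protein disposal rose with the chaperones in part. In the ubiquitin and autophagy receptor list 9 of 21 genes rose and none fell (median 1.07). ZFAND2A, an arsenite-inducible partner of the proteasome, was at 3663 and 3862 CPM against 0.315, 7.95 and 10.5 CPM (log2 fold change 8.96 ± 0.20, edgeR adjusted p = 1.91e-59). SQSTM1, the receptor p62 that carries ubiquitinated cargo to autophagy, was at 2589 and 2936 CPM against 301, 361 and 396 CPM (2.96 ± 0.11). MAP1LC3B, a coat protein of autophagosomes, differed by 2.50 ± 0.14. For these genes too no control overlapped with cadmium. The list's plain share was 0.872% and 0.778% against 0.378% to 0.419%.

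Of 36 proteasome genes 13 rose and 1 fell, with a median of 0.33. PSMC4, an ATPase of the regulatory particle, was at 339 and 358 CPM against 113, 131 and 186 CPM (log2 fold change 1.36 ± 0.16), and the assembly factor POMP at 412 and 367 against at most 223 (1.28 ± 0.20). PSMD5, an assembly chaperone, fell from a control median of 80.1 to 11.3 and 22.4 CPM (-2.23 ± 0.43). The direction of this list depends on the scaling: its plain share was 0.5261% and 0.481% in cadmium, below the 0.689% to 0.776% of the controls. Against controls 1 to 8 alone 7 of its genes were higher and 2 lower.

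ER chaperones rose together: 18 of 22 genes were higher and none lower, and the median was 2.29, against 0 over all genes when genes at 0 in a group are set to their bound. HSPA5 (chr9:125234853-125241330), also called BiP, the main HSP70 of the ER, was at 12149 and 8983 CPM against 473, 546 and 629 CPM. The log2 fold change was 4.29 ± 0.11 (edgeR adjusted p = 7.98e-54) with no overlap. DNAJB9, a BiP co-chaperone, was at 288 and 157 CPM against at most 19.2 (3.90 ± 0.30). HERPUD1, part of ER-associated degradation, was at 571 and 591 CPM against at most 54.98 (3.70 ± 0.19), and the secreted factor MANF at 1182 and 1019 against at most 99.97 (3.66 ± 0.14). Together the list held 1.82% and 1.27% of the counts, against 0.452% to 0.573% in the controls. Its number of higher genes stayed between 16 and 20 under all 17 alternative settings.

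The ATF4 branch was mixed. Of 23 ATF4 targets 7 rose and 3 fell. ATF3, a stress-induced repressor, was at 102 and 174 CPM against at most 2.59 (log2 fold change 7.93 ± 0.57). DDIT3, which encodes CHOP, was at 345 and 549 CPM against at most 9.16 (6.06 ± 0.34). PPP1R15A, the GADD34 subunit that reverses eIF2α phosphorylation, was at 2226 and 2173 CPM against 8.81, 17.7 and 27.05 CPM (7.03 ± 0.17, edgeR adjusted p = 4.63e-57). These members were apart from every control. CHAC1, which degrades glutathione, was at 62.8 and 63.01 CPM against at most 3.73 (5.45 ± 0.60). In contrast PSPH, of serine synthesis, had no counts in cadmium and 26.4, 44.02 and 52.7 CPM in the controls, at least 22.3-fold lower. Among 20 tRNA synthetases, several of them ATF4 targets, 4 rose and 4 fell. GARS1 was at 759.6 and 402 CPM against at most 236 (1.65 ± 0.14), and EPRS1 at 201 and 126 against at least 317 (-1.22 ± 0.16).

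Heme and iron handling was led by HMOX1 (chr22:35380361-35394214), heme oxygenase 1. It was at 3794 and 4127 CPM in cadmium and at 1.41, 3.54 and 12.4 CPM in the controls, a log2 fold change of 9.99 ± 0.27 (edgeR adjusted p = 1.15e-53). In its list of 13 genes 4 rose and 1 fell. FTL, the ferritin light chain, was at 11692 and 12284 CPM against 922, 1369 and 1733 CPM (3.17 ± 0.13), and ALAS1, the first enzyme of heme synthesis, at 109 and 129 against at most 69.2 (1.43 ± 0.29). FTH1, the heavy chain, differed by 0.79 ± 0.27, was higher in controls 1 to 8 (6298 to 7762 CPM) than in controls 10 to 16 (3194 to 3820 CPM), and was not called against controls 1 to 8 alone (log2 fold change 0.28, edgeR adjusted p = 0.777) or without replicate 1 (0.372) or 2 (0.262).

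Glutathione genes did not move as 1 block. GCLM, the regulatory subunit of the enzyme that limits glutathione synthesis, was at 364 and 552 CPM against 58.5, 86.9 and 123 CPM (log2 fold change 2.37 ± 0.24, edgeR adjusted p = 6.26e-14). GCLC, its catalytic subunit, fell to 35.2 and 84.0 CPM from 143, 174 and 224 CPM (-1.59 ± 0.36, edgeR adjusted p = 0.000723). The subunits of 1 enzyme thus lay on opposite sides of the control range, and GCLC was not called without replicate 1 (edgeR adjusted p = 0.237). In all, 3 of 15 genes of the list rose and 1 fell, and its plain share of 0.268% and 0.271% was below the controls' 0.360% to 0.422%. SLC7A11, the cystine importer, was not called at 80.4 and 40.6 CPM against 13.3, 25.4 and 61.9 CPM (1.23 ± 0.82, edgeR adjusted p = 0.503). Its level was 13.3 to 25.4 CPM in controls 1 to 8 and 26.1 to 61.9 CPM in controls 10 to 16. Under 3 alternative settings it was called higher: DESeq2, thinned libraries and the low replicate numbers alone. SRXN1, sulfiredoxin, was not called either (11.3 and 0 CPM against at most 14.5).

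Of 22 genes of NADPH supply and other NRF2 targets 11 rose and 2 fell, with a median of 0.70. NQO1, the quinone reductase often used as an NRF2 marker, was at 1563 and 1631 CPM against 559, 623 and 698 CPM (log2 fold change 1.35 ± 0.11, edgeR adjusted p = 1.54e-17). OSGIN1 was at 172 and 356 CPM against at most 14.7 (5.67 ± 0.42), AKR1C1, an aldo-keto reductase with close paralogs, at 935 and 909 against at most 259 (2.53 ± 0.35), and MAFG, a DNA-binding partner of NRF2, at 132 and 123 against at most 44.5 (2.22 ± 0.37). All 4 lay above every control. KEAP1, the sensor that holds NRF2 back, fell to 16.3 and 1.4 CPM from 99.4, 117 and 142 CPM (-3.67 ± 0.44). The list's plain share, 1.09% and 0.932%, was inside the control range of 0.905% to 1.46%. Among 18 thioredoxin and peroxide genes 4 rose and 1 fell: TXN, thioredoxin, was at 1289.5 and 1301 CPM against at most 493 (1.72 ± 0.17), TXNRD1, its reductase, at 428 and 416 against at most 302 (0.90 ± 0.25), and CAT, catalase, fell to 37.7 and 9.80 CPM from at least 60.3 (-1.68 ± 0.44). TXNRD1 was not called without replicate 1 or 2 (edgeR adjusted p = 0.185 and 0.137), nor CAT without replicate 2 (0.419). The list's plain share of 0.386% and 0.332% was below the controls' 0.395% to 0.542%, so its direction depends on the scaling.

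Immediate early genes, which answer growth and stress signals within minutes, were high at 48 h in part: 9 of 28 rose and 4 fell. FOSB was at 195 and 101 CPM against 0, 0 and 1.12 CPM (log2 fold change 8.82 ± 0.61). EGR1 was at 2081 and 2393 CPM against 20.3, 40.3 and 53.8 CPM (5.80 ± 0.17, edgeR adjusted p = 3.36e-50), and the nuclear receptor NR4A1 at 45.2 and 88.2 against at most 5.46 (5.12 ± 0.66). Both libraries stood above all controls. DUSP6, a phosphatase that shuts off ERK, had 0 counts in both and 39.1, 47.5 and 54.6 CPM in the controls, at least 23.8-fold lower. EGFR, the receptor for the growth factor on which MCF10A depends, fell to 32.6 and 35.01 CPM from 142, 175 and 211 CPM (-2.37 ± 0.38), and its ligand HBEGF was at 18.8 and 81.2 CPM against at most 5.83 (3.45 ± 0.80), a call lost without replicate 2 (edgeR adjusted p = 0.851). They were the 2 genes called in a list of 10 for EGFR and its ligands.

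In the inflammatory list 5 of 27 genes rose and 1 fell, and the median was 0 with genes at 0 in a group at their bound. The list's plain share of 0.168% and 0.212% was inside the controls' 0.0721% to 0.673% (median 0.548%). CXCL8, the neutrophil chemokine interleukin 8, was at 1104 and 1358 CPM against 18.6, 68.4 and 97.3 CPM (log2 fold change 4.20 ± 0.32). IL1B was at 454.5 and 1124 CPM against 18.03, 45.7 and 71.0 CPM (4.04 ± 0.37), IL11 at 67.8 and 74.2 against at most 1.05 (9.01 ± 0.95) and LIF at 13.8 and 65.8 against at most 4.93 (3.88 ± 1.06). All 4 were above every control. For all 4, and for HBEGF, the cadmium libraries differed from each other by more than the width of the control range. LIF was not called without replicate 2. Of 20 interferon-stimulated genes only OAS3 was called, and its call was lost under 8 of the alternative settings, among them without replicate 2 (edgeR adjusted p = 1). Matrix and integrin genes counted 8 higher and 3 lower of 36. LAMB3, a chain of the basement membrane laminin, was at 4363 and 5635 CPM against 366, 572 and 637 CPM (3.21 ± 0.18), and MMP1, with 0 and 15 counts, was called higher only through replicate 2 (DESeq2 adjusted p = 0.533, and log2 fold change -1.12 and edgeR adjusted p = 1 without it).

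Genes of mitosis fell: of 30, 18 were lower and none higher, with a median of -1.29, and the plain share was 0.135% and 0.0824% against 0.377% to 0.579%. PLK1, the kinase that drives entry into mitosis, was at 56.5 and 37.8 CPM against 193, 218 and 307 CPM (log2 fold change -2.24 ± 0.35, edgeR adjusted p = 5.49e-07). MKI67, the proliferation marker, was at 102 and 64.4 CPM against 178, 200.2 and 245 CPM (-1.27 ± 0.31, edgeR adjusted p = 0.00218), and without replicate 2 it was not called (-0.99, edgeR adjusted p = 0.208). CCNB2, a mitotic cyclin, had 69.1 and 1.4 CPM against at least 114 (-2.02 ± 0.33), so the libraries differed widely from each other while both lay below the controls. Without replicate 2 CCNB2 missed the threshold (edgeR adjusted p = 0.0546). TTK and DLGAP5 fell too but lost their calls without replicate 1 (edgeR adjusted p = 0.350 and 0.168) and without replicate 2 (0.0505 and 0.203). Across the alternative settings 6 to 24 of the 30 genes were lower and none was higher.

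DNA replication genes counted 7 lower and none higher of 41. Among all 3780 genes at 30 to 100 CPM in the higher group 630 were lower and 292 higher. Both cadmium libraries lay below every control for 24 of the 41 replication genes and above for 1. Over all genes tested these shares were 13.1% and 6.56%. The list's plain share was 0.0906% and 0.0824% against 0.240% to 0.431% in the controls. MCM4, of the replicative helicase, was at 45.2 and 7.0 CPM against at least 128 (log2 fold change -2.49 ± 0.55), RFC5 at 8.79 and 8.40 against at least 34.2 (-2.41 ± 0.77), and TYMS, thymidylate synthase, at 1.26 and 26.6 against at least 47.2 (-2.14 ± 0.66). ORC1 had no counts in cadmium and was at least 12.2-fold lower. Single libraries decided most of these calls: without replicate 1 the edgeR adjusted p was 0.301 for RFC5, 0.732 for TYMS and 0.355 for ORC1, and without replicate 2 it was 0.134 for MCM4, 0.287 for RFC5 and 0.321 for ORC1. Of 17 histone genes H4C3 alone was called (89.1 and 33.6 CPM against at least 139, edgeR adjusted p = 0.199 without replicate 2), and 9 were at 0 in both cadmium libraries. Among 24 p53 targets 4 rose and 4 fell. CDKN1A, the cell cycle inhibitor p21, was at 341.5 and 453.7 CPM against 165, 192 and 229.8 CPM (1.04 ± 0.19, edgeR adjusted p = 1.35e-05, and 0.0557 without replicate 2), SESN2 was at 212 and 307 against at most 36.2 (3.44 ± 0.31), and CCNG1 fell to 126 and 78.4 from at least 310.3 (-2.14 ± 0.27). Of 16 BCL2 family genes 1 rose and 2 fell, counts near the 5.67% and 5.38% of all genes. PMAIP1, which encodes NOXA, was at 36.4 and 88.2 CPM against at most 22 (edgeR adjusted p = 0.00317, and 0.717 without replicate 2), and BAK1, a pore former, at 12.6 and 33.6 against at least 74.4 (0.00023, and 0.124 without replicate 1). BCL2L1, which encodes BCL-XL, was lower at an adjusted p of 0.05 (edgeR) that 8 alternative settings did not keep, among them without replicate 1 (1).

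All 13 protein-coding genes of the mitochondrial genome rose, with a median of 1.75. MT-ND4 was at 34091 and 43914 CPM against 6258, 8843 and 10144 CPM (log2 fold change 2.22 ± 0.13), and MT-ND4L, MT-ND2 and MT-ND1, further subunits of complex I, differed by 2.49 ± 0.20, 2.43 ± 0.14 and 2.29 ± 0.12. Both cadmium libraries were above every control for all 13 genes. The ribosomal RNAs, named after their values were seen, differed by 3.72 ± 0.18 (MT-RNR2) and 3.63 ± 0.23 (MT-RNR1). MTRNR2L12, a nuclear copy of MT-RNR2, was also higher (4.30 ± 0.21), and reads may be shared between them. Of the nuclear genes of the respiratory chain 1 of 42 rose and 7 fell, with a median of 0.01. CYC1, of complex III, was at 286 and 286 CPM against 565, 682 and 797 CPM (-1.23 ± 0.16).

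Ribosomal protein genes counted 28 higher and none lower of 76 (median 0.55), led by RPS27 (1621 and 1704 CPM against 263, 635 and 871 CPM, log2 fold change 1.53 ± 0.35). Among all 650 genes at 300 CPM or more in the higher group 304 were higher and 99 lower. The ribosomal list depends on scaling and controls. Its plain share was 6.80% and 6.39% in cadmium, below the 6.83% to 10.96% of the controls, RPS27 was higher in controls 1 to 8 (635 to 871 CPM) than in controls 10 to 16 (263 to 425 CPM), and against controls 1 to 8 alone 6 genes were higher and 2 lower. Without cadmium replicate 1 the count was 12 and without replicate 2 it was 4, where RPS27 was at an edgeR adjusted p of 0.0501. Hosts of small nucleolar RNAs counted 2 lower of 24, near the 5.38% of all genes: SNHG3 (-1.72 ± 0.33) and SNHG16 (-0.90 ± 0.21), and neither was called without replicate 2 (edgeR adjusted p = 0.0515 and 0.397).

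Lipid genes split. In sterol synthesis 9 of 23 rose and 4 fell. HMGCS1, which makes HMG-CoA for cholesterol, was at 918 and 748 CPM against 129.7, 162 and 227 CPM (log2 fold change 2.23 ± 0.22), MVD at 360.4 and 274 against at most 132 (1.89 ± 0.24), HSD17B7 at 158 and 106 against at most 60.2 (1.85 ± 0.33), and IDI1 at 707 and 519.5 against at most 289.5 (1.53 ± 0.16). In fatty acid synthesis 2 of 12 rose and 3 fell: SREBF1, the gene of the lipogenic factor SREBP1, was at 25.1 and 2.80 CPM against at least 33.01 (-2.59 ± 0.66), ELOVL6 at 28.9 and 53.2 against at least 115 (-1.76 ± 0.34), and SCD at 281 and 200.2 against at least 436 (-1.11 ± 0.30). Without replicate 1 HSD17B7 and ELOVL6 just missed the threshold (edgeR adjusted p = 0.0582 and 0.0592), and without replicate 2 SREBF1 and SCD were not called (0.249 and 0.259). The sterol list's plain share of 0.372% and 0.257% was not above the controls' 0.358% to 0.460%. In glycolysis and hypoxia 2 of 30 rose, the collagen hydroxylases P4HA2 (1.61 ± 0.23) and P4HA1 (1.14 ± 0.28, edgeR adjusted p = 0.609 without replicate 1), and 3 fell, among them LDHA, lactate dehydrogenase (2595 and 2182 CPM against at least 3742, -0.89 ± 0.18).

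Markers of breast epithelium were present but uneven, with 4 of 15 higher and 5 lower. KRT5 was at 704 and 497 CPM against 1047, 1126 and 1511 CPM (log2 fold change -0.98 ± 0.19, edgeR adjusted p = 0.0687 without replicate 2). KRT17, of basal and stressed epithelium, rose (1941 and 1084 CPM against at most 554, 1.78 ± 0.24), while KRT14 was not called (139 and 147 CPM against 68.8, 107 and 154 CPM, 0.48 ± 0.48, edgeR adjusted p = 0.832). Of 16 keratins tested 5 rose and 2 fell, with a plain share of 1.36% and 1.19% against 1.55% to 2.36% in the controls. EPCAM fell to 7.53 and 2.80 CPM from at least 26.96 (-3.01 ± 0.94), a call lost without replicate 1 or 2 (edgeR adjusted p = 0.192 and 0.347). TP63 and KRT19 had 0 counts in cadmium, and KRT19 was at 0 in 13 of the controls as well. Of squamous differentiation genes 1 of 26 rose, SERPINB2 (33.9 and 85.4 CPM against at most 3.67), and 2 fell, TGM1 and DSP. SERPINB2 missed the threshold without replicate 2 (edgeR adjusted p = 0.0755) and TGM1 without replicate 1 or 2 (0.185 and 0.230).

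Markers of other cell types were at or near 0: ESR1, PGR, CD3E, CD68, PECAM1 and VWF had no counts in either cadmium library, PTPRC had 2 and COL1A1 had 4 in both together. DCN, a stromal proteoglycan that these cultures also express, had 41 counts and was at 21.8 to 136 unscaled CPM in the controls. Of the 7 that could be tested none was called, and the summed share of the list was 0.0016% and 0.00165% in cadmium against 0.00248% to 0.0141% in the controls.

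**Figure D4:**
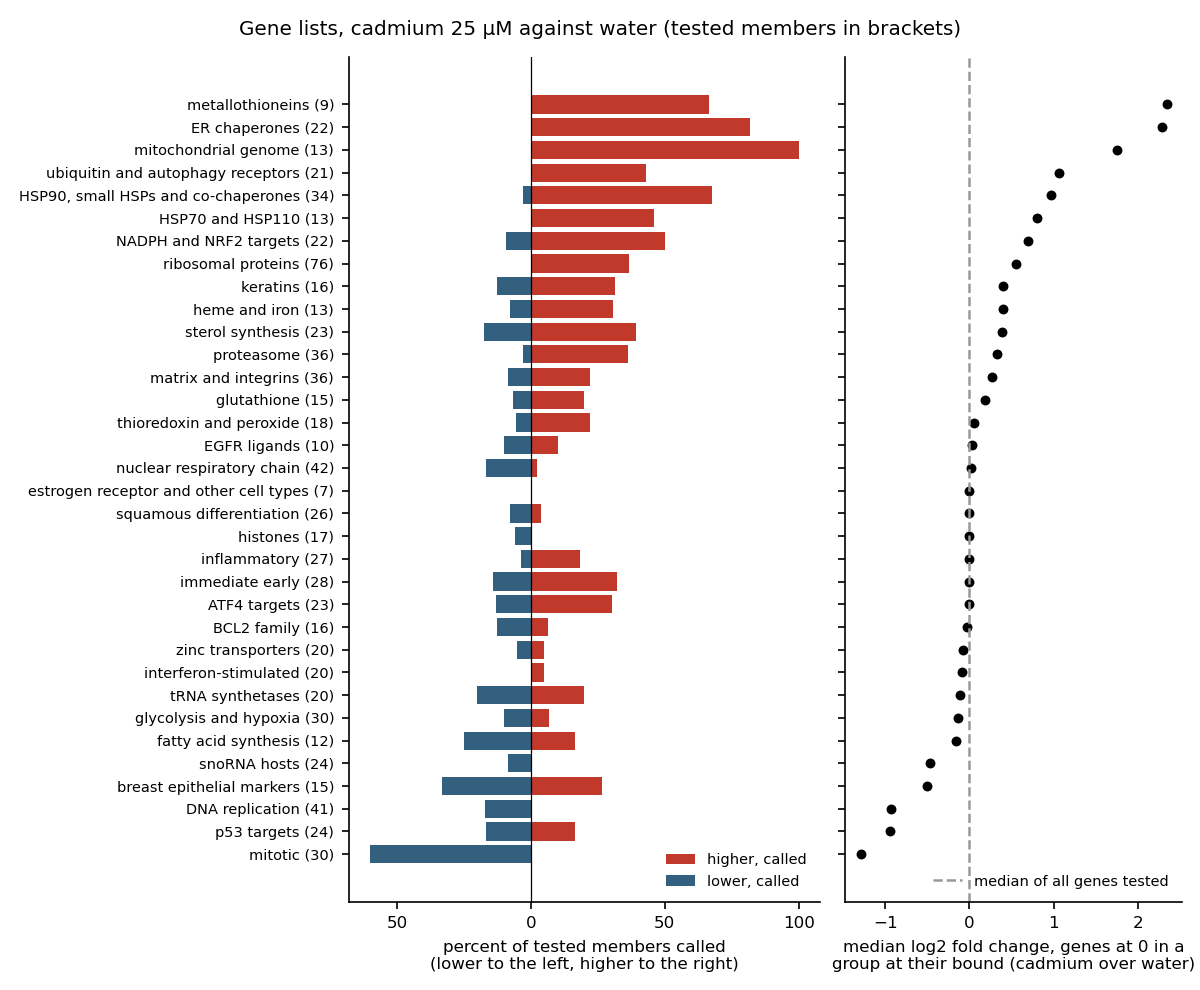
For each gene list, the percent of tested members called higher (right) or lower (left) in cadmium, and beside it the list's median log2 fold change with genes at 0 in a group set to their bound (dashed line: all genes, 0). The ER chaperones stand at 18 higher of 22 and the mitotic genes at 18 lower of 30.

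The 12 largest increases among genes at 20 CPM or more came mostly from genes silent in the controls, which a ranking by fitted log2 fold change favours. FGFR3P6, a processed pseudogene whose reads may be shared with its parent, had 56 and 159 counts in cadmium and none in any of the 15 controls (at least 8841-fold). The same held for MLC1, an astrocyte membrane protein (60.3 and 112 CPM, at least 5264-fold), the non-coding LINC01705 (31.4 and 101 CPM, at least 3989-fold), and SERPINA7, thyroxine-binding globulin (33.9 and 93.8 CPM, at least 3866-fold). KLKP1, AC105046.1 and SLC44A4 were silent in the controls as well (at least 2179-, 1933- and 1892-fold). AL662890.1, a non-coding RNA, was at 275 and 409 CPM against at most 0.26 (log2 fold change 12.07 ± 0.55). EGR4, MYCT1 and DCDC2C had 1 control count each: the ratio for EGR4 was 12707 with an exact 95% interval of 2230 to 506703, which covers counting error only, and EGR4 was not called without replicate 2 (edgeR adjusted p = 0.0697). HSPA6 completes the set. DESeq2 called 3 of these 12, HSPA6, AL662890.1 and KLKP1, and the other 9 were at DESeq2 adjusted p-values of 0.0602 to 0.438, so their calls depend on the tool. Also high, and named after their values were seen, were GADD45G (662 and 812 CPM against at most 4.60, 11.21 ± 0.40), CCN2, a matricellular YAP target (1543 and 1426 against at most 69.6, 5.46 ± 0.38), and TIMP1, a protease inhibitor (13925 and 14310.0 against at most 1783, 3.37 ± 0.20).

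The 12 largest decreases by fitted log2 fold change were all genes with 0 counts in both cadmium libraries, which that ranking favours. They were CKAP2, ARMC1, MTRR, DUSP6, ATP6V0E2, ZNF639, ADGRA3, PM20D2, PSPH, RBM26, RNF138 and PER1. DESeq2 called all 12. CKAP2, a spindle protein, was at 50.4, 68.2 and 103 CPM in the controls and at least 35.3-fold lower in cadmium. ARMC1 (39.8, 53.5 and 83.9 CPM) was at least 25.98-fold and RNF138 (30.1, 41.9 and 68.7 CPM) at least 19.8-fold lower, the bounds being set by 3 counts over both libraries. PER1 was not called without replicate 1 or 2 (edgeR adjusted p = 0.119 and 0.0996). In all, 127 of the 1306 lower calls had 0 counts in both cadmium libraries, and 298 of the 1378 higher calls had counts in 1 cadmium library only.

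The step from 2.5 to 25 µM cadmium gave 2343 calls of the 24295 genes (9.64%), 1167 (4.8%) higher and 1176 (4.84%) lower at 25 µM. Both cadmium libraries lay above all 4 libraries of the lower dose for 2100 genes (8.64%) and below them for 6046 (24.9%). Cadmium 2.5 libraries held 9.84 M to 15.7 M counts and 8.45% to 9.62% mitochondrial counts. HSPA6 was at 110.6, 200.4, 21.6 and 70.3 CPM in replicates 1 to 4 at 2.5 µM, at most 3.28 CPM at 0.25 µM and at most 1.57 CPM at 0.025 µM, and the log2 fold change of the last step was 5.34 ± 0.29. HMOX1 was at 322, 433, 67.4 and 146 CPM at 2.5 µM, 9.67 to 16.1 at 0.25 µM and 3.33 to 6.23 at 0.025 µM (4.05 ± 0.32 for the last step). ZFAND2A was at 108, 127, 13.9 and 50.9 CPM at 2.5 µM (last step 5.69). At 2.5 µM these genes were above every control and far below their level at 25 µM, and at 0.25 µM HMOX1 reached just past the highest control while HSPA6 stayed within the control range. Replicates 1 and 2 at 2.5 µM were above replicates 3 and 4 for all 3 genes.

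Most metallothioneins were not called for this step. MT1X was at 516, 492 and 101, 172 CPM in replicates 1, 2 and 3, 4 at 2.5 µM, and the step to 1076 and 941 CPM was not called (log2 fold change 1.66 ± 0.69, edgeR adjusted p = 0.125). MT2A (0.91 ± 0.38, edgeR adjusted p = 0.126), MT1E (1.24 ± 0.48, edgeR adjusted p = 0.0892) and MT1F (1.58 ± 0.55, edgeR adjusted p = 0.0521) were not called for this step either, and 1 of 9 metallothioneins was, the pseudogene MT1L (2.95 ± 0.55). SLC30A1 was at 61.8 to 69.3 CPM at 2.5 µM and differed by 0.30 ± 0.42. ER chaperones rose in 19 of 22 cases for the same step (median 2.10, against 0 over all genes, with genes at 0 in a group at their bound). HSPA5 went from 1043, 1189, 695 and 917 CPM to 12149 and 8983 (3.46 ± 0.16), and 17 of 30 mitotic genes fell. The 4 steepest increases were SERPINA7, AC105046.1, KIF1A and CPNE5, none with a count at 2.5 µM (at least 467-fold for CPNE5). DESeq2 called CPNE5 but not SERPINA7, AC105046.1 or KIF1A (adjusted p = 0.418, 0.464 and 0.467), and without replicate 1 AC105046.1 and KIF1A were not called (edgeR adjusted p = 0.0937 and 0.0632). The 4 steepest decreases were CKAP2, ARMC1, DUSP6 and MTRR (at least 27.96-fold for MTRR).

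**Figure D5:**
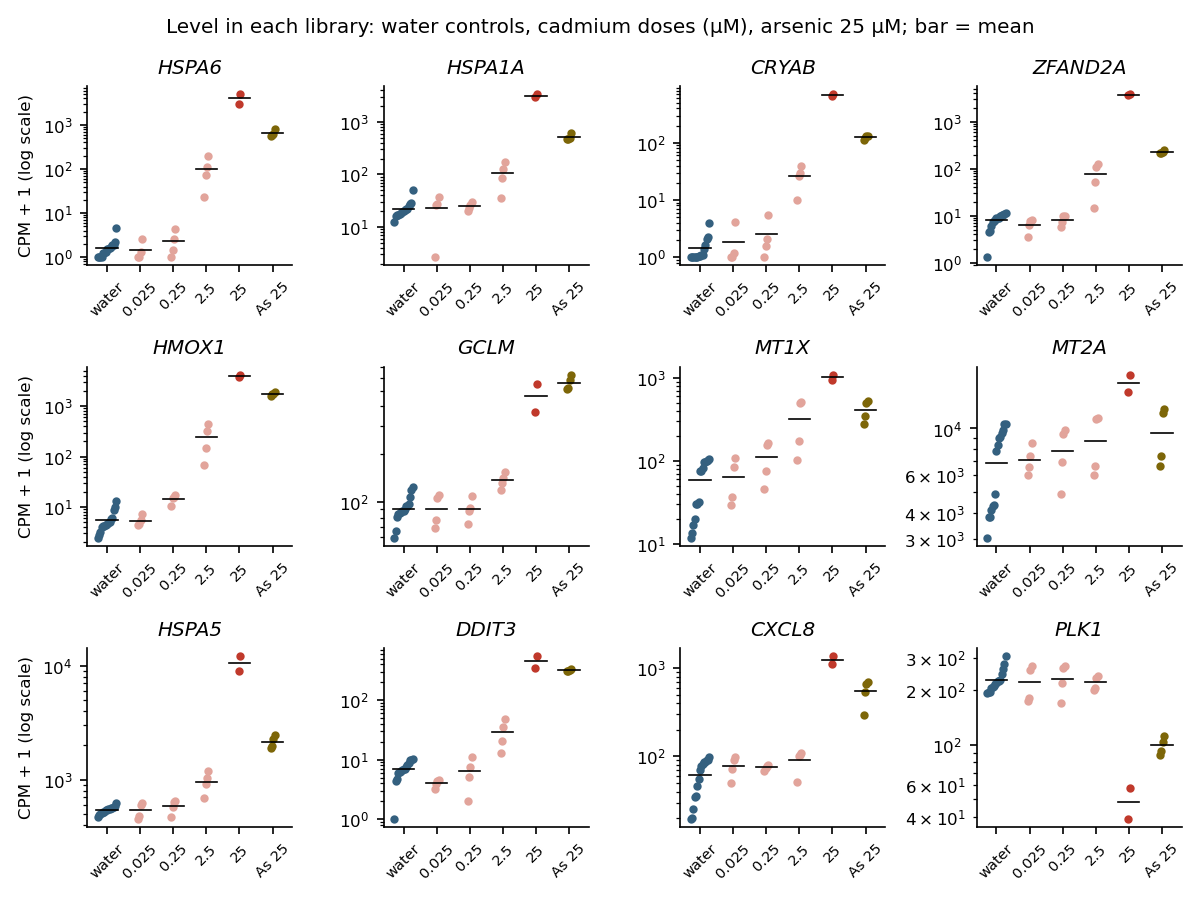
CPM plus 1 on log axes in each library for 12 genes: 15 water controls, cadmium at 0.025, 0.25, 2.5 and 25 µM, and arsenic at 25 µM, with the mean as a bar. HSPA6, HSPA1A, CRYAB, ZFAND2A and HMOX1 are highest at 25 µM cadmium and intermediate at 2.5 µM, MT1X and MT2A overlap more between doses, and PLK1 is lowest at 25 µM cadmium.

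Arsenic, a further thiol-binding element, was given on the same plate at the same dose and time, with 7.27 M to 12 M counts per library. Cadmium differed from it in 2079 genes (8.56%), 1049 (4.32%) higher and 1030 (4.24%) lower. Both cadmium libraries lay above all 4 arsenic libraries for 2202 genes (9.06%) and below them for 5613 (23.1%). The comparison shares the cadmium libraries with those above. Chaperones were higher with cadmium: 18 of 34 in the HSP90 and co-chaperone list and 6 of 13 in the HSP70 list, where 2 were lower. HSPA6 was at 573, 790, 633 and 602 CPM with arsenic (cadmium over arsenic, log2 fold change 2.62 ± 0.27, edgeR adjusted p = 4.05e-14), and ZFAND2A at 216, 248, 214 and 228 CPM (4.05). HMOX1 was closer, at 1743, 1580, 1950 and 1746 CPM (1.17 ± 0.31, edgeR adjusted p = 0.00604). No arsenic library reached a cadmium library for these 3 genes.

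ER chaperones separated the metals too, with 15 of 22 higher with cadmium and 1 lower (median 1.51, against 0 over all genes on the same terms). MANF was at 45.5, 34.6, 42.1 and 43.7 CPM with arsenic, below the 58.6 CPM of the lowest water control, and at 1182 and 1019 with cadmium (log2 fold change 4.73 ± 0.18). ATF4 targets went the other way, 12 of 23 lower with cadmium and 1 higher, as did 9 of 20 tRNA synthetases (2 higher) and 11 of 24 p53 targets (none higher). SLC7A11 was at 439, 436, 618 and 493 CPM with arsenic (-3.02, edgeR adjusted p = 0.000426) and CHAC1 at 233, 226, 240 and 225 CPM (-1.88, edgeR adjusted p = 7.55e-05). DDIT3 (0.48, edgeR adjusted p = 0.523) and GCLM (-0.29, edgeR adjusted p = 0.783) were not called.

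The 4 genes lowest against arsenic had no counts with cadmium. ARC, an immediate early gene, was at 765, 808, 595 and 488 CPM with arsenic (at least 327-fold lower with cadmium), RASD1 at 372, 434, 208 and 295 CPM (at least 165-fold), PCK2, an ATF4 target, at 139.5, 112, 163 and 178.5 CPM (at least 76.1-fold), and PRSS8 at 120, 83.9, 159 and 119 CPM (at least 60.1-fold). FGFR3P6, the steepest in the other direction (at least 1799-fold, DESeq2 adjusted p = 0.387), had no count in any arsenic library and was at 4.97 to 8.82 CPM in all 4 libraries with 2.5 µM cadmium. SLC44A4 (3.77 and 60.2 CPM, at least 385-fold), ADAMTS18 (3.77 and 42.01 CPM, at least 276-fold) and DNAH17-AS1 (1 arsenic count in all) followed. Mitotic genes hardly separated the metals, with 3 of 30 higher and 2 lower, and MKI67 was at 60.1 to 92.4 CPM with arsenic (0.19, edgeR adjusted p = 1). Sterol genes were higher with cadmium in 12 of 23 cases and lower in none, with HMGCS1 at 102 to 125 CPM with arsenic. KEAP1 was at 111 to 178 CPM with arsenic (-4.02). The mitochondrial genome was higher with cadmium in all 13 genes.

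The left-out library labelled Cadmium 25 held 1.28 M counts, 10734 genes and 5.12% MT-RNR2, a share within the range of the controls. Its log2 CPM over 9364 genes correlated with the mean of the controls at 0.769 and with the mean of the cadmium libraries at 0.569. HMOX1 and HSPA6 had no counts in it. Of 25 genes fixed for naming that were called higher in cadmium, 6 were above every control in this library and 19 were not. Its barcode differs from that of the controls, and the share of all genes above every control in this library was not counted. With it added, 2226 genes were called against water, of which 1677 were among the 2684.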

How the data were processed

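Each library was deposited by the authors as whole-number read counts per gene symbol, 34718 symbols per library, with no normalization. The submitters' processing notes name FastQC, MultiQC, STAR, featureCounts and GRCh38, without versions. The sources used here do not give the annotation, strand setting or filters. No molecular identifiers are named, so intervals and floors cover counting error only. Groups came from the sample titles and plate barcodes. Symbols were matched to GENCODE v29 (32110, 92.5%).

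Counts of the 93 libraries on the plate, in 21 groups of chemical and dose, were fitted together with edgeR 4.0.16 in R 4.3.3: filterByExpr (minimum count 10, minimum total 15), TMM scaling, and quasi-likelihood F-tests with a common dispersion from the most abundant 5% of genes. P-values were adjusted by Benjamini-Hochberg over all genes tested and called under 0.05. Errors of log2 fold changes are standard errors from the F statistic. Fitted fold changes use the default prior count of edgeR, and log2 CPM for the correlations used a prior count of 2. Where a group had no counts, a bound from 3 counts over the group is given in place of the fitted value. Rankings of genes use the fitted values and so favour genes at 0 in a group. The scripts were tested on simulated data. Shares of counts and genes detected at equal depth were compared with two-sided exact permutation tests (scipy 1.17.1).

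The genes described are the 12 with the highest and the 12 with the lowest log2 fold change of those called at a mean of at least 20 CPM in the higher group with both cadmium libraries outside the control range, a fixed set of stress and marker genes, up to 4 called members of each gene list, and the 4 highest and 4 lowest in each other comparison. MT-RNR2, MT-RNR1, MTRNR2L12, TIMP1, GADD45G and CCN2 were added after their values were seen. The comparison and the gene lists were chosen with earlier results of these data known. Alternatives were RLE and TMMwsp scaling, DESeq2 1.42.0, other filters, thinned libraries, each cadmium library left out, subsets of the controls, a term or block for replicate number, and the library with the other barcode added.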

Additional observations from a re-analysis of the deposited data

Results flagged for a closer look

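In the library labelled Cadmium 25 that carries the barcode of plate 3284-AT and was kept out of the comparisons, 6 of 30 genes of the fixed set stood above every water control. Those controls carry the barcode of plate 3153-AT. The share of all genes above every control in this library was not counted. MT2A was at 15148 CPM (highest control 10554), MT1E at 1772 CPM (1343), SLC30A1 at 74.7 CPM (50.4), NQO1 at 838 CPM (698), ATF3 at 6.03 CPM (2.59) and SQSTM1 at 423 CPM (396). Of the 25 genes of this set that were called higher in the 2 cadmium libraries, 19 were not above the controls in it.

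Among 69 groups of 4 libraries tested for a library far from the others, 4 held one, where chance alone flags about 1 in 20. CKAP2 was at 63.6 CPM in replicate 2 of Cadmium 2.5 and at 86.4 to 88.9 CPM in the other replicates. SQSTM1 was at 501 CPM in the same library and at 439 to 447 CPM in the others. SRXN1 was at 45.7 CPM in replicate 1 of Arsenic 25 and at 35.1 to 36.9 CPM in the others. DNAH17-AS1 was at 0.12 CPM, from 1 count, in replicate 2 of Arsenic 25 and at 0 in the others.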

How the results depend on the processing

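The number of genes called against water moved most under 4 settings, and the cause was not tested. Against 2684 calls, DESeq2 made 6591 (2806 higher, 3785 lower, with 8479 adjusted p-values not given), a stricter low-count filter 4201 (2493 lower), thinned libraries 6097 (2333 higher, 3764 lower) and trended dispersions, chosen after seeing the data, 7480 (3144 higher, 4336 lower). With either cadmium library left out, 1286 to 1517 genes were called, 793 to 859 higher and 493 to 658 lower. The lone cadmium library is then assumed to vary like the other groups. Against Cadmium 2.5 (2343 calls) the same settings gave 6070, 3944, 5487 and 6222, and 1128 to 1335 with a cadmium library left out. Against Arsenic 25 (2079 calls) they gave 5951, 3780, 5508 and 5685, and 926 to 1043.

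Of the calls against water, 2348 were also called by DESeq2, 2067 under the stricter filter (8759 genes tested), 2321 with thinned libraries and 2682 with trended dispersions. The share of calls that were higher moved from 51.3% to 62.2% with RLE size factors, 42.6% with DESeq2, 40.7% with the stricter filter and 38.3% with thinned libraries. RLE moved the median of all genes from -1.42 to -1.25. Against Cadmium 2.5 RLE moved that share from 49.8% to 61.6%, and against Arsenic 25 TMMwsp moved it from 50.5% to 68.6%. The remaining settings against water gave 2149 to 2773 calls, the block aside, including controls 1 to 8 only (2624) and counts without the mitochondrial genome (2560), both chosen after seeing the data.

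With the replicate number as a block, 1851 genes were called (827 lower), of which 1623 were among the 2684, and 1775 and 1578 in the comparisons with Cadmium 2.5 and Arsenic 25. Deviations of same-numbered cadmium and control libraries correlated at -0.018 and 0.013, which gives no sign that numbers 1 and 2 pair them. This check cannot see a difference between low and high numbers, which the controls show (TMM factors 0.951 to 0.987 in controls 1 to 8, 1.06 to 1.13 in controls 10 to 16); with a term for it 2234 genes were called.

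With 1 cadmium library left out, the difference in genes detected at equal depth was -3781.4 to -3439.4, that in mitochondrial share 29.4 to 36.9 percentage points and that in the share of the 50 most abundant genes 28.1 to 34.4 points. The smallest exact permutation p is then 0.0625. Of 153 genes described, 86 kept their direction and side of the threshold under every alternative. ORC1 turned with the library of the other barcode added (log2 fold change 0.31, edgeR adjusted p = 0.949) and MMP1 without replicate 2 (-1.12, adjusted p = 1, against 10.05 without replicate 1). No gene under 10 CPM in the higher group was called lower, so falls at that level cannot be followed here. Of genes at 3 to 10 CPM in the controls, 52.1% and 56.6% had 0 counts at equal depth in the cadmium libraries. In the controls at the same depth 0.509% to 17.5% (median 1.02%) did, and the cause of the difference was not tested.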
